A study of Mus musculus with 2 samples.

Results

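The IL-10, IL-12 and IL-6 families are cytokines that macrophages release to damp or to drive inflammation, together with the receptors that read them. Of the 54446 genes counted in this series, 10 were taken by name: 7 cytokine genes (Il10, Il12a, Il12b, Il23a, Il27, Ebi3 and Il6) and 3 receptor genes (Il10ra, Il10rb and Il6ra). They were picked because Il10 was higher and Il12b lower with IL-36 gamma, so the ratios of these genes are a description and carry no test. Messenger RNA was sequenced from macrophages grown out of C57BL/6 bone marrow (BMDMs), in 1 control library with no treatment and 1 library given IL-36 gamma, a cytokine of the IL-1 family. No genetic change is named for either group, and the sources used here do not give the dose, the time of exposure or the number of mice or cultures. Each group is a single library, so no difference could be checked on replicates and p-values are left out.

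IL-10 is the main cytokine by which macrophages restrain their own inflammatory output. It binds a receptor made of the chain encoded by Il10ra and the shared chain encoded by Il10rb, which signals through JAK1, TYK2 and STAT3. The IL-12 family are paired proteins that share chains: the p40 chain (Il12b) joins p35 (Il12a) to form IL-12 or p19 (Il23a) to form IL-23, and EBI3 joins p28 (Il27) to form IL-27 or p35 to form IL-35. IL-6 binds the receptor chain encoded by Il6ra, and the pair then signals through gp130, encoded by Il6st.

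The libraries held 17426367 gene counts in control cells and 17267900 in treated cells. Macrophage markers were abundant in both. Lyz2, which encodes lysozyme, had 404546 and 380329 counts, and Adgre1, which encodes an adhesion receptor that marks mouse macrophages, had 49439 and 53682. The 8 macrophage markers summed to 29439 CPM in control cells and 29333 CPM in treated cells (CPM, a count after scaling both libraries to 1 common total). Most of each sum was Lyz2. Of the 8 markers, 3 were above 1 and 4 below, against 20.2% and 16.5% of all 14379 measured genes. Small shifts fall off 1 in genes counted this deeply, as for Lyz2 (ratio 0.987, 0.982 to 0.991). The shares over all genes are therefore not a matched background for these markers. Fcgr1 (ratio 1.35, 1.29 to 1.40) and Itgam (1.28, 1.24 to 1.33) were higher. Mertk (0.786, 0.748 to 0.825) and Csf1r (0.809, 0.795 to 0.824) were lower. The 11 neutrophil markers summed to 274.3 and 365.5 CPM. Their 2 most counted genes were Csf3r (2193 and 2076 counts) and S100a8 (844 and 1274 counts). The granulocyte antigen gene Ly6g had 8 and 9 counts. Of the 10 measured neutrophil markers 6 were above 1, with a median log2 ratio of 0.72 over the 10. Over all measured genes 20.2% were above 1, and the median log2 ratio was 0.011. Elane, which encodes neutrophil elastase, had 3 and 22 counts, a ratio of 7.70 (2.31 to 40.2), wholly above 2. Camp had a ratio of 1.86 (1.26 to 2.76) and S100a9 of 1.70 (1.55 to 1.88), and these 3 genes were named after their values were seen. The part of neutrophils in the results below was not tested. The T and NK cell list summed to 13.2 and 7.74 CPM, nearly all of it Cd4 (232 and 128 counts), with 5 of 8 markers at 0 in both libraries. In the mast cell and basophil list 5 of 6 markers were at 0 in both, and Kit had 1 and 5 counts. Fibroblast markers summed to 9.90 and 5.97 CPM, with 104 and 68 counts of Col1a1 and 60 and 21 of Col1a2.

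The sequence upstream of 3 of the cytokine genes is shown because their levels lay far apart in the same libraries: Ebi3 was abundant, Il12b scarce and Il6 nearly absent. Each line gives the 250 bases before the RefSeq start site on GRCm38.p6, plus strand, with capitals marking matches on either strand to any of 5 motifs. The windows are chr17:55952373-55952622 for Ebi3, chr11:44399813-44400062 for Il12b and chr5:30012864-30013113 for Il6.
Ebi3: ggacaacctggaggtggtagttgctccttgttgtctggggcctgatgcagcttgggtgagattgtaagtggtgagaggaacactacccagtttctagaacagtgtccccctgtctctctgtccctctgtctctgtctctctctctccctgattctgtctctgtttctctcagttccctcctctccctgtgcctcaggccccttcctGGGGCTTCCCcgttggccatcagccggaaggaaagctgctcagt
Il12b: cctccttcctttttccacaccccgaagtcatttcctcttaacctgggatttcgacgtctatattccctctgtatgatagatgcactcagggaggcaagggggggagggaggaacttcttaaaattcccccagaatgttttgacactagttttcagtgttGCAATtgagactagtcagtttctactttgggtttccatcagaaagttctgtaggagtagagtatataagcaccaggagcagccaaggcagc
Il6: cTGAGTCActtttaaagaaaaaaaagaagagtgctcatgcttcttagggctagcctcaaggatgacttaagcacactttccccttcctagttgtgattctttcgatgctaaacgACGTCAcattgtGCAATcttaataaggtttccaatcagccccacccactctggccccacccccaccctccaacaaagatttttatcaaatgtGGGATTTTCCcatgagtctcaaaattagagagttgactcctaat

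The motifs were the C/EBP half-site GCAAT (in 23.1% of all 32851 such RefSeq windows), the AP-1 motif TGANTCA (6.75%), the CRE half-site TGACGT (6.47%), the TATA element TATAAA (12.4%) and the NF-kB consensus (7.25%). The Il6 window held 4 of the 5: AP-1 at 249 to 243 bases before the start, a CRE half-site at 136 to 131, a C/EBP half-site at 124 to 120 and an NF-kB match at 44 to 35. In Il12b a C/EBP half-site at 91 to 87 bases was the 1 match, and in Ebi3 it was an NF-kB match at 44 to 35 bases. A match describes letters in this window and is neither a binding site nor a cause of the levels.

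Across the families, IL-36 gamma treatment went with more Il10 and Ebi3 transcript and less Il12b, Il6ra and Il10ra. Il10 was 1.84 times the control level, Ebi3 1.23 times, and Il12b 0.121 times on a total of 29 counts. Of the 10 genes, 7 had a mean count of at least 10 in the 2 libraries, the level from which ratios are counted here, and Il12b passed it through the control library. A gene is called above or below 1 where the whole 95% exact (Clopper-Pearson) interval of its ratio of scaled counts, IL-36 gamma over control, lies on that side. That interval covers counting error only and not the spread between cultures. Among the 7 genes, 2 were above 1, 3 below and 2 spanned it, where 20.2% of 14379 measured genes were above and 16.5% below. That background moves with the scaling: with TMM, 2907 genes were above 1 and 2375 below, and with scaling by total gene counts the split was 2070 above and 3214 below. Il12b was the 1 gene whose interval lay wholly below 0.5, as it did for 0.0904% of measured genes, and none of the 7 lay wholly above 2, where 0.0765% did. The members were chosen on this same contrast, so nothing is read from these shares.

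**Figure D1:**
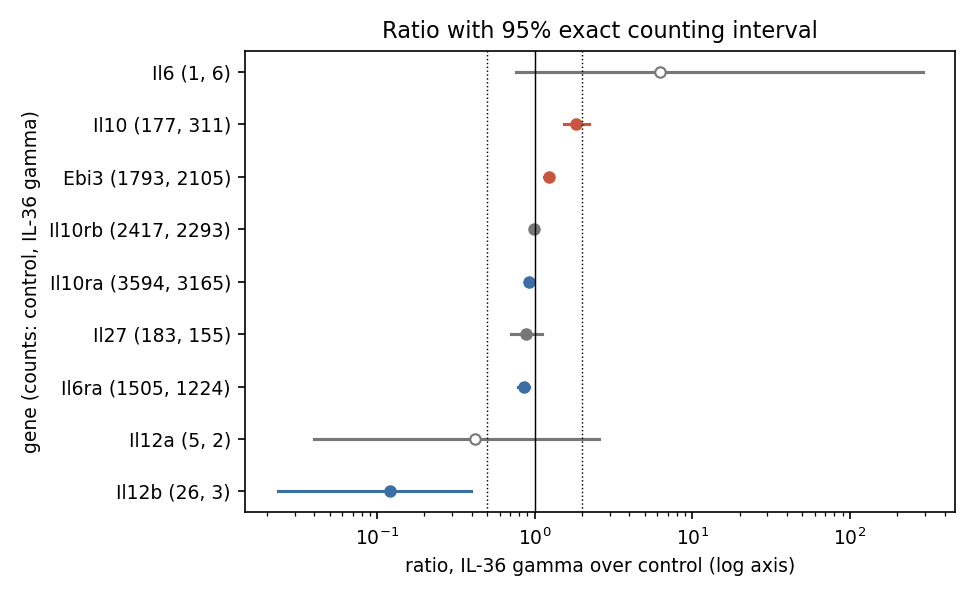
Ratio of scaled counts, IL-36 gamma over control (log axis), for the 9 genes with counts in both libraries. Points are ratios and lines their 95% exact counting intervals, in red above 1, blue below 1 and grey where they span 1. Open points mark genes with a mean count under 10, and dotted lines stand at 0.5 and 2. Il10 (1.84) and Ebi3 (1.23) lie right of 1, and the whole line of Il12b lies left of 0.5.

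Il10 (ENSMUSG00000016529, chromosome 1, 131019845 to 131024974, plus strand, mm10), with 5 exons, was counted 177 times in control cells and 311 times in treated cells. On the scaled level this was 9.96 CPM against 18.4 CPM. The ratio was 1.84 (1.53 to 2.23), so the higher bound passed 2 and the lower did not. Of 3990 genes with a mean count within 0.5 to 2 times that of Il10, 13.4% were above 1. An interval wholly above 1.5 was found for 0.351%. Among the members that bound was applied to Il10 alone, a gene chosen for being higher, so nothing is read from these shares. The lower bound of Il10 was under 1.5 with a 99% interval (1.44), with scaling by total gene counts (1.47) and with the length trend removed (1.41). The protein-coding genes most like it, by the closest log2 ratio over these 2 libraries among 481 genes of similar count and the same side, were Ddit3 (289 and 508 counts, ratio 1.85), Kalrn (101 and 179, ratio 1.86) and Slfn1 (98 and 175, ratio 1.87). No exon of Il10 overlaps another annotated gene.

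Il12b (ENSMUSG00000004296, chromosome 11, 44400063 to 44414033, plus strand), which encodes the p40 chain, went from 26 counts in the control to 3 with IL-36 gamma. The level fell from 1.46 CPM to 0.177 CPM, the level of 3 counts. The ratio was 0.121 (0.0235 to 0.395), or 8.26-fold lower with bounds of 2.53 and 42.6, so its size is known only loosely. With a 99% interval the upper bound was 0.517, and the gene no longer lay wholly below 0.5. In a window of 2419 genes with mean counts within 0.5 to 2 times that of Il12b, 8.10% were below 1 and 0.455% wholly below 0.5. That window also takes in genes with a mean count under 10, which are not among the measured genes. The genes most like it among 84 candidates were Abca6 (25 and 3 counts), Tm6sf2 (14 and 1) and Postn (17 and 1). Tm6sf2 and Postn had a mean count under 10.

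Dendritic cells also make p40, so their markers were read beside Il12b. Of the 9 dendritic cell markers, 8 had a mean count under 10, and Cd209a and Siglech were at 0 in both libraries. The list summed to 12.2 CPM in control cells and 15.1 CPM in treated cells, most of it Batf3 (176 and 225 counts), which had a ratio of 1.34 (1.10 to 1.64). Batf3 is also known from cross-presenting dendritic cells, and of other markers of those cells Xcr1 had 11 and 3 counts, Clec9a 10 and 4, and Itgae 11 and 5. Each of these 3 intervals includes 1. Xcr1, Clec9a and the further markers without large counts were named after their values were seen. Ccr7, which marks mature dendritic cells, had 3 and 12 counts. The interval of its ratio ran from 1.13 to 23.2, wholly above 1, on a mean count under 10. Less transcript per cell and fewer cells that carry it cannot be told apart in bulk RNA, and the part of dendritic cells in the Il12b counts was not tested. B cells are a further source of IL-10. Of their markers, Ms4a1 had 1 and 2 counts, Pax5 had 4 and 0, and Cd79a had 16 and 3 (ratio 0.197, 0.0367 to 0.688). Each of these 3 had a mean count under 10. The larger counts of the B cell list went in opposite directions. Cd79b had 384 and 490 (ratio 1.34, 1.17 to 1.53) and Ighm 360 and 285 (0.831, 0.709 to 0.973). The sum of the list was 43.1 and 46.1 CPM, and the part of B cells in the Il10 counts was not tested.

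The balance of Il10 to Il12b can be read within each library, where no scaling between libraries enters. Il10 made up 177 of 203 counts of the pair in the control, 87.2% (exact binomial 81.8 to 91.5). With IL-36 gamma it made up 311 of 314, a share with an interval from 97.2% to 99.8%. Per kilobase of exon, Il10 stood 10.2 times above Il12b in control cells and 156 times above it in treated cells. These genes were chosen for that contrast, so the shift is a description of these 2 libraries. Against Tnf, which encodes a main inflammatory cytokine of macrophages and was itself above 1, Il10 held 11.4% of the pair's counts (9.83 to 13.0) in control cells and 15.8% (14.2 to 17.5) in treated cells.

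The remaining chains of IL-12 and IL-23 were close to undetected. Il12a (ENSMUSG00000027776, chromosome 3, 68690644 to 68698547, plus strand), which encodes p35, had 5 and 2 counts, a ratio of 0.420 (0.0400 to 2.56). Il23a (ENSMUSG00000025383, chromosome 10, 128296139 to 128298752, minus strand), which encodes p19, had 0 and 3 counts. A count of 0 allows up to 3 counts, which is 0.169 CPM in the control library and 0.177 CPM in the treated one. Both counts of Il23a lay at or under the 3-count floor of their own library, and no fold is given. Neither gene differed detectably at this depth. In the control Il12b exceeded p35 transcript 4.50 times per kilobase of exon, with 26 of the 31 counts of the pair (83.9%, 66.3 to 94.5). With IL-36 gamma, Il12b held 3 of 5 counts (60.0%, 14.7 to 94.7), which leaves the balance of the chains unknown.

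Il6 (ENSMUSG00000025746, chromosome 5, 30013114 to 30019981, plus strand), which encodes an inflammatory cytokine with many targets, had 1 count in control cells and 6 in treated cells. The ratio of 6.30 had an interval from 0.764 to 290, so no difference was detectable at this depth. Both libraries held well under 1 CPM of Il6, at 0.0563 and 0.354 CPM. Other cytokines of activated macrophages were present in the same libraries, among them Tnf (1381 and 1657 counts) and Il1b (252 and 261 counts).

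Of the chains of IL-27, Ebi3 was above 1 and Il27 spanned it. Ebi3 (ENSMUSG00000003206, chromosome 17, 55952640 to 55957022, plus strand) went from 1793 counts to 2105, a ratio of 1.23 (1.16 to 1.31). Its level was 101 CPM in control cells and 124 CPM in treated cells. Of 2828 genes with a similar count, 37.9% were above 1. After a trend of the ratios on exon length was removed the Ebi3 ratio was 1.14, below its own interval and still above 1 (1.07 to 1.22). The antisense gene Gm16712 (1160 and 1273 counts) covers 270 of the 1154 exonic bases of Ebi3, and reads from the pair cannot be told apart there, since the strand setting of the counting is not given.

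Il27 (ENSMUSG00000044701, chromosome 7, 126589010 to 126594941, minus strand), which encodes p28, had 183 counts in control cells and 155 in treated cells. Its ratio of 0.889 (0.713 to 1.11) spanned 1. Within each library Ebi3 took 90.7% of the pair's counts in control cells (89.4 to 92.0). With IL-36 gamma the share was 93.1% (92.0 to 94.1). The intervals lay narrowly apart, with an upper bound of 91.98% in control cells and a lower bound of 92.02% in treated cells. Per kilobase of exon, Ebi3 exceeded Il27 8.67 times in control cells and 12.0 times in treated cells. Of the 1021 exonic bases of Il27, 103 lie in exons of Apobr (3735 and 3392 counts) on the opposite strand.

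On the receptor side, the ligand-binding chains of IL-10 and IL-6 were slightly lower and the shared IL-10 receptor chain spanned 1. Il10ra (ENSMUSG00000032089, chromosome 9, 45253837 to 45269149, minus strand) had 3594 counts in control cells and 3165 in treated cells. Its ratio was 0.924 (0.881 to 0.970). Il10rb (ENSMUSG00000022969, chromosome 16, 91406164 to 91425834, plus strand), the chain that the receptors of IL-22 and interferon lambda also use, had 2417 and 2293 counts, a ratio of 0.996 (0.940 to 1.05). Among 1664 genes counted about as deeply as Il10ra, 23.7% were below 1. The share of Il10ra in the counts of the 2 chains was 59.8% (58.5 to 61.0) in control cells and 58.0% (56.7 to 59.3) in treated cells, with overlapping intervals. Of the 3808 exonic bases of Il10rb, 569 are shared with Gm21970 on the same strand, which had 0 counts in both libraries.

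Il6ra (ENSMUSG00000027947, chromosome 3, 89864059 to 89913196, minus strand) went from 1505 counts to 1224, a ratio of 0.854 (0.791 to 0.921). Its partner Il6st, which encodes the signalling chain gp130, went from 978 counts to 796, with the same ratio of 0.854 (0.777 to 0.939). The share of Il6ra in the counts of this pair was 60.6% in each library (58.7 to 62.5 for the control and 58.4 to 62.7 for treated cells). Both genes are long, and ratios in these libraries fell with exon length, from a median log2 ratio of 0.10 in the shortest of 5 equal groups of measured genes to -0.11 in the longest. With that trend removed the ratio of Il6ra was 0.910 (0.843 to 0.982). Among 3655 genes of a count like that of Il6ra, 22.5% were below 1. Of its 8642 exonic bases, 242 overlap the antisense gene Gm42809 (63 and 31 counts).

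**Figure D2:**
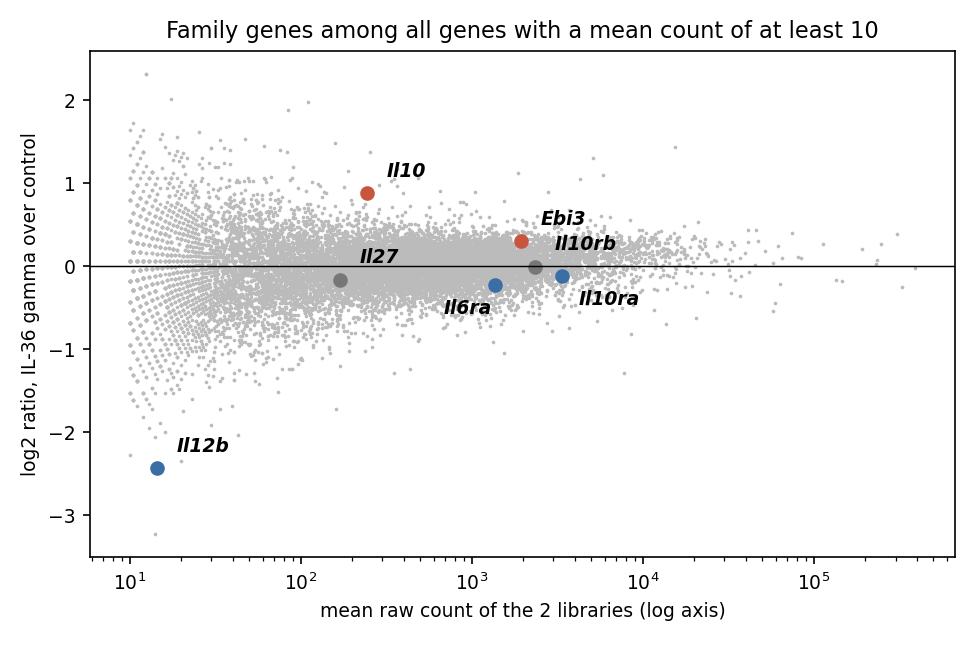
Log2 ratio, IL-36 gamma over control with a prior count of 2, against the mean raw count of the 2 libraries (log axis), for genes whose mean count reached 10. Grey points are all 14379 such genes and large points the 7 family genes among them, in red above 1, blue below 1 and grey spanning 1. Il10 lies at the upper edge of genes of its count and Il12b among the lowest points of the plot, near the left end where counts are few.

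Levels between genes were compared per kilobase of exon. In the control the order was Ebi3 (87.4 CPM per kilobase), Il10ra (57.8), Il10rb (35.7), Il27 (10.1), Il6ra (9.80), Il10 (7.60), Il12b (0.744), Il12a (0.165), Il6 (0.0232) and Il23a (0). The 95% Poisson intervals of Il27 and Il6ra overlapped, as did those of Il12a and Il6 and of Il6 and Il23a. Overlap of separate intervals does not show that levels are equal. The interval of Il10 (6.52 to 8.81) also overlapped that of Il27 (8.68 to 11.7) and lay apart from that of Il6ra (9.31 to 10.3). With IL-36 gamma, Il10 stood at 14.0 CPM per kilobase, above Il27 (8.97) and Il6ra (8.36), with intervals apart from both, while those of Il27 and Il6ra overlapped. At the lower end, Il6 (0.146), Il12b (0.0901), Il23a (0.0789) and Il12a (0.0694) then had overlapping intervals. Scaled to the longest transcript in place of all exons, Il10rb came to 48.7 CPM per kilobase in control cells and 48.5 in treated cells, and its rank did not change.

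**Figure D3:**
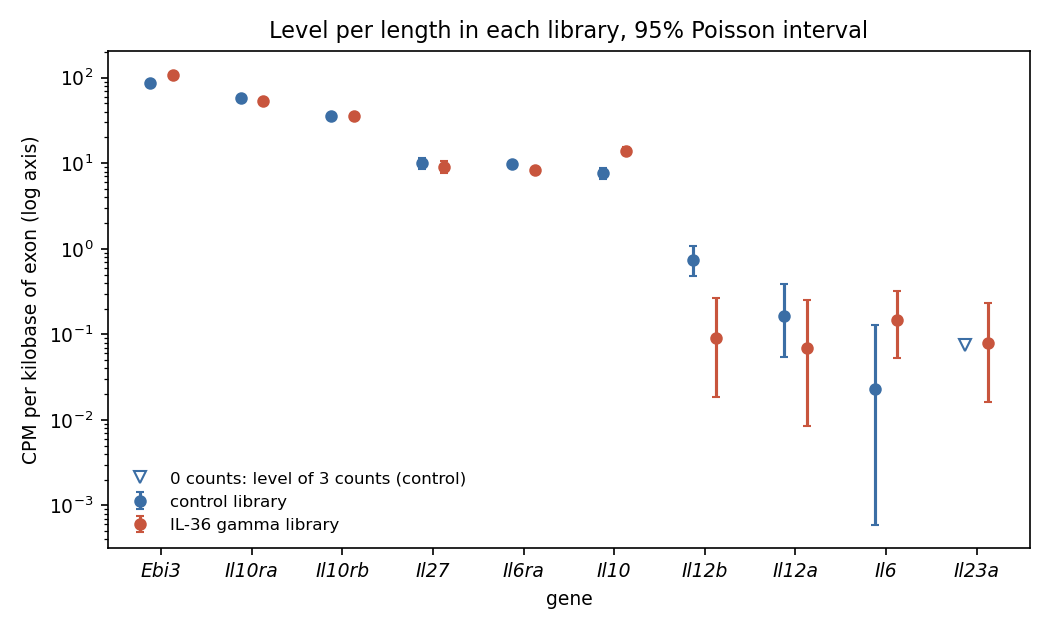
Level of each family gene in CPM per kilobase of exon (log axis), in the order of the control library, with control in blue and IL-36 gamma in red. Bars are 95% Poisson intervals, and the open triangle is the level of 3 counts for Il23a, which had 0 counts in the control. Ebi3 leads at 87.4 and 107.7, Il10 moves from 7.60 to 14.0, and Il12b moves from 0.744 into the range of the nearly undetected genes.

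Few other ligands of these families were detected. Of 14 such genes, 6 had 0 counts in both libraries and 2 were measured, both spanning 1: Osm, encoding oncostatin M (123 and 104 counts, ratio 0.887, 0.677 to 1.16), and Clcf1 (114 and 120 counts, ratio 1.10, 0.848 to 1.44). Among 15 other receptor genes, 8 were measured, 1 above 1 and 1 below. Il12rb1, which encodes the chain that receptors of IL-12 and IL-23 share, went from 41 counts to 69, a ratio of 1.77 (1.18 to 2.67). The 1 below was Il6st. The list's median log2 ratio was 0.033 against 0.011 over all measured genes. Of 2467 genes with a mean count within 0.5 to 2 times the list's median, 7.34% were above 1 and 11.5% below. The share of genes above or below 1 grows with their count. Larger lists below are therefore set beside genes within 0.5 to 2 times their own median count. Members can lie outside that range, as Il6st (978 and 796 counts) does here. Nothing particular to a list is read from its counts.

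Among JAK, STAT and feedback genes, which act directly below these receptors, 6 of 14 measured genes were above 1 and 1 was below, with a median log2 ratio of 0.15. Near the list's median count, 29.0% of 4028 genes were above 1 and 22.0% below. Socs3, the feedback inhibitor that STAT3 induces and that blocks gp130, went from 918 counts to 1318, a ratio of 1.51 (1.38 to 1.64). The phosphatase genes Ptpn1 and Ptpn6 had a ratio of 1.16 each (1.12 to 1.21 and 1.13 to 1.20). Socs3 answers to several cytokines, and the counts do not show which one acted.

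Of 14 genes known to respond to IL-10 through STAT3, all measured, 9 were above 1 and 3 below, with a median log2 ratio of 0.15. Among 2891 genes near the list's median count, 37.3% were above 1 and 23.2% below. Besides Socs3, the stress gene Ddit4 was higher, with 324 and 486 counts, a ratio of 1.57 (1.37 to 1.82). In the other direction, Il1rn, which encodes the IL-1 receptor antagonist, went from 2121 counts to 977, a ratio of 0.483 (0.448 to 0.522). Cd163, the scavenger receptor for haemoglobin, went from 618 counts to 249, a ratio of 0.423 (0.364 to 0.491), wholly below 0.5.

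Of 20 kinases and transcription factors known to act on Il10, 5 were above 1 and 4 below. Near the list's median count, the shares were 25.7% and 20.9% of 4414 genes. The list's median log2 ratio was -0.022, and 0.018 with the length trend removed. Cebpb, which encodes C/EBP beta, went from 4040 counts to 5342, a ratio of 1.39 (1.33 to 1.45). Mapk3, encoding the kinase ERK1, had a ratio of 1.13 (1.09 to 1.18). Sp1, which encodes a widely expressed factor that binds GC-rich promoters, was lower, with 1222 and 969 counts, a ratio of 0.832 (0.764 to 0.906).

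Of 14 transcription factors known to act on Il12b or Il6, 8 were above 1 and 2 below, with a median log2 ratio of 0.18. In 2445 genes near the list's median count, 41.1% were above 1 and 23.9% below. Nfil3, which encodes a repressor of Il12b, went from 173 counts to 245, a ratio of 1.49 (1.22 to 1.82). Bcl3, an inhibitor of NF-kB-driven transcription, had a ratio of 1.35 (1.26 to 1.44), and both genes also stand in the list of IL-10 responses. Spi1, which encodes the macrophage lineage factor PU.1, had 13385 and 16863 counts, a ratio of 1.32 (1.29 to 1.35). Without genes that overlap exons on the opposite strand the median of this list was 0.061.

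Among 10 RNA-binding proteins known to act on cytokine messages, 2 were above 1 and 4 below, with a median log2 ratio of -0.10. The shares in 3858 genes near the list's median count were 30.7% above and 22.4% below. Tia1, a translational silencer, went from 392 counts to 260, a ratio of 0.696 (0.593 to 0.816). Zfp36l1 (ratio 0.785, 0.739 to 0.835) and Zfp36l2 (ratio 0.809, 0.778 to 0.841), which encode relatives of tristetraprolin, were also below 1. Zc3h12a, which encodes the nuclease regnase-1 that cuts Il6 and Il12b messages, was above 1, with 1894 and 2099 counts and a ratio of 1.16 (1.09 to 1.24). The median of this list was 0.092 once the length trend was removed, so the sign of this median turned with that setting.

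Of the 2 proteases that shed IL-6 receptor from the cell surface, Adam10 was below 1 (2974 and 2586 counts, ratio 0.913, 0.865 to 0.962) and Adam17 spanned it (4046 and 3732 counts). Other cytokines made by macrophages had 4 of 8 measured genes above 1 and 0 below, with a median log2 ratio of 0.11. Near their median count, 13.0% of 3880 genes were above 1 and 15.2% below. Tnf and Tgfb1 were counted more deeply than those genes. Tnf had a ratio of 1.26 (1.17 to 1.35), Csf1 1.33 (1.02 to 1.73), Il18 1.24 (1.02 to 1.52) and Tgfb1 1.07 (1.03 to 1.11).

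**Figure D4:**
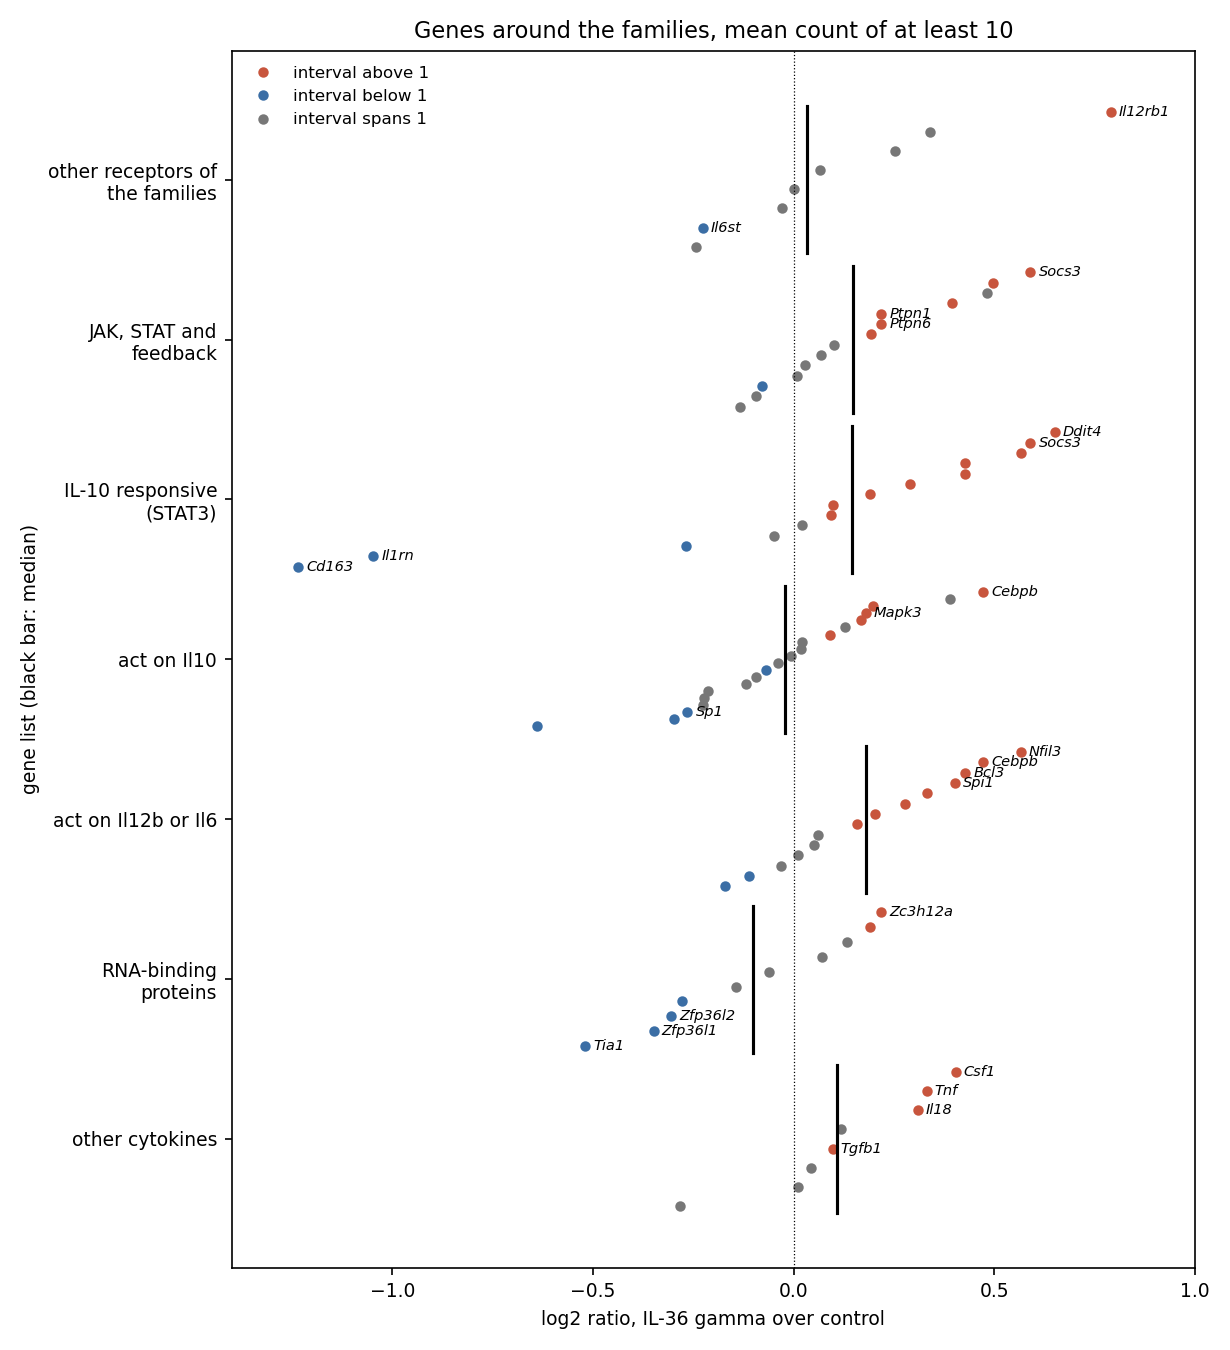
Log2 ratio, IL-36 gamma over control with a prior count of 2, of the measured genes (mean count 10 or more) in 7 lists around the IL-10, IL-12 and IL-6 families. Each point is a gene, in red above 1, blue below 1 and grey where its counting interval spans 1, spread vertically by rank, and black bars are list medians. Members lie on both sides of 0 in each list, with Cd163 and Il1rn farthest to the left and Il12rb1 farthest to the right.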

How the data were processed

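Each library was deposited as raw counts per Ensembl gene, not normalized by the authors. The submitters' processing notes name mm10 as the build, STAR 2.5.0a and HTSeq, and for reads Trim Galore 0.6.1 and FastQC 0.11.8. For the annotation, the HTSeq settings and the strand, the sources used here give nothing. The 5 counter rows that name no gene were left out. Of all rows they included 47.2% (control) and 46.3% assigned to no gene. GENCODE M21 gave symbols, positions and exon lengths for 54409 of 54446 genes, promoter windows came from RefSeq, and 5 members had one.

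Counts were scaled with TMM factors (edgeR 4.0.16, R 4.3.3; 1.02 and 0.981), with no edgeR test. Ratios carry 95% Clopper-Pearson intervals, levels carry exact Poisson intervals, and both cover counting error only, since each group has 1 library. Reads have no molecular identifiers, so copies of 1 molecule could not be removed and the intervals may be too narrow. The interval was tried on simulated Poisson counts, the model it assumes, so that trial does not cover the spread between cultures. List medians used a prior count of 2 and genes whose mean count reached 10. Alternatives were DESeq2 1.42.0 size factors, total counts, upper quartile, TMM on protein-coding genes, trends on length, expression or GC removed by lowess (span 0.3, statsmodels 0.14.6), other count filters, a 99% interval, a 1.5-fold bound, other lengths and other list summaries.

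Named were all 10 members, up to 4 genes per list whose interval lay farthest from 1 (otherwise the 2 most counted), 2 markers per cell type and the 3 genes most like Il10 and Il12b. Other names were added after their values were seen, and values of some list genes are not reported here. The members and lists were chosen with earlier results of these data known.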

Additional observations from a re-analysis of the deposited data

How the results depend on the processing

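Across 8 alternatives each (other scalings, trends removed and a 99% interval), no family gene changed its side of 1. The ratio of Il10 ran from 1.71 to 1.88, that of Il12b from 0.112 to 0.127, that of Il10ra from 0.883 to 0.924 and that of Il6ra from 0.821 to 0.910. The Ebi3 ratio was 1.14 with the length trend removed, outside its counting interval. Genes past 2-fold (11 higher, 13 lower) numbered 7 and 5 with a 99% interval and 50 and 76 at a 1.5-fold bound. Lower genes numbered 21 with no count filter and 5 where a mean count of 50 was required, which leaves out Il12b. Of the genes on either side of 1, 55.0% were above with TMM and 39.2% with total gene counts (2070 above, 3214 below); the other 3 scalings gave 49.5% to 53.2%. Without opposite-strand overlaps, genes past 2-fold were 7 and 8, and genes above and below 1 were 1923 and 1497 (2907 and 2375 with them), as fewer genes were tested. The median log2 ratio of factors acting on Il12b or Il6 was 0.061 without those overlaps and 0.094 with the expression trend removed, and that of RNA-binding proteins was 0.092 with the length trend removed; the cause was not tested. Il10rb came to 48.7 and 48.5 CPM per kilobase by longest transcript. A GC trend from exons on a genome was not run; one from transcript sequences was chosen after seeing the data. No paired analysis was possible because each group has 1 library, and no library could be left out. Depth limits Il6, Il12a, Il23a and Il12b, at 3 to 29 counts in total.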
